A study of Saccharomyces cerevisiae with 25 samples.

Results

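The first hour after yeast cells were moved to medium without phosphate was compared with the 45 min that followed it, to describe transcripts that departed briefly from their level soon after transfer, around the time at which the phosphate-responsive (PHO) genes began to be induced. The cells were Saccharomyces cerevisiae of background BY4741, a haploid laboratory strain, labelled as carrying YFP under the PHO84 promoter (pho84pr-YFP) and a deletion of VIP1 (delta-vip1), which encodes an inositol pyrophosphate kinase. All libraries share this genotype, so nothing below separates an effect of the deletion. The earlier window held the 4 RNA-seq libraries labelled 15, 30, 45 and 60 min without phosphate, and the later window the 3 libraries labelled 75, 90 and 105 min, together 7 of the 25 libraries of the series. The 0 min library, from cells in high-phosphate medium, is given as a level only and entered no test. Each time point had 1 library from 1 time course, so neighbouring times stood in for replicates. The p-values set a difference of windows against a spread between neighbouring times. In the fit each gene's spread was drawn toward that of all genes at its level, which weighed more than its own. Cells in medium with phosphate were not followed over the same times here, so the absence of phosphate, the transfer itself and the passage of time cannot be told apart.

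The 7 libraries held 1278276 to 2665833 reads, read back from the deposited values, and listed 5149 to 5421 genes. Levels are in RPM (reads per 1000000 in that library), and the values of a window are given in time order. Genes were listed from 10 reads upward, and the 5067 genes listed in all 7 libraries were tested. VIP1 was listed in all 7 libraries at 22.7, 27.2, 20.1 and 21.6 RPM over 15 to 60 min and 23.6, 23.6 and 24.8 RPM over 75 to 105 min, from 29 to 66 reads. Where reads listed under VIP1 in a strain labelled delta-vip1 came from was not tested, and the sources used here do not say what was deleted. Of 4 genes that BY4741 lacks, HIS3, LEU2 and MET17 had 0 of the 7 libraries listed and URA3 had 4.

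Yeast cells that meet a sudden change in medium are known to run a shared program in which Msn2 and Msn4, zinc finger activators held back by protein kinase A, induce stress and reserve carbohydrate genes through the stress response element. Over the same minutes the genes for building ribosomes are turned down, many of which carry the PAC and RRPE elements. Loss of phosphate is read more slowly, through the cyclin-dependent kinase Pho85, its cyclin Pho80 and the inhibitor Pho81, and ends in the activator Pho4 binding at phosphate transporter, phosphatase and polyphosphate genes. Phospholipid genes answer to inositol and choline through Ino2, Ino4 and the repressor Opi1.

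Stretches upstream of members of 4 gene groups are shown, with only the short elements looked for in that group marked. Elements of the other groups are not marked, and TPS1, PNC1, CHO2 and ITR1 each had at least 1 match of those upstream. Each was read from the R64 genome within 500 to 101 bases before the annotated start codon, is written 5′ to 3′ on the gene's strand, and belongs to a member that passed the test between the windows, shares no reads and had the most matches of its list. Ties in the number of matches were settled by the larger absolute test statistic. Capitals mark the motif on either strand. TPS1 (chrII:490619-490872, minus strand) and PNC1 (chrVII:428163-428264, minus strand) show AGGGG, the stress response element core.
TPS1: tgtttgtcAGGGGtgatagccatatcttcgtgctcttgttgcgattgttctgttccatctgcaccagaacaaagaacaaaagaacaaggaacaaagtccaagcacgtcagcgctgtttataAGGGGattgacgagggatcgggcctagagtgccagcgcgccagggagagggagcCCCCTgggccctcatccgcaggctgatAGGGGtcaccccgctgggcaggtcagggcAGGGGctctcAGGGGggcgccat
PNC1: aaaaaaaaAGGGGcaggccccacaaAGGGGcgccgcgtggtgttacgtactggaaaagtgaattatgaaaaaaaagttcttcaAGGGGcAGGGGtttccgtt
CHO2 (chrVII:802094-802186, plus strand) and ITR1 (chrIV:1445675-1445867, minus strand), of phospholipid synthesis and inositol uptake, show CATGTG, the core bound by Ino2 and Ino4. The first run of capitals in CHO2 is a pair of overlapping matches.
CHO2: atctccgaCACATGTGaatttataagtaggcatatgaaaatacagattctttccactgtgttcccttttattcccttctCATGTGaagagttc
ITR1: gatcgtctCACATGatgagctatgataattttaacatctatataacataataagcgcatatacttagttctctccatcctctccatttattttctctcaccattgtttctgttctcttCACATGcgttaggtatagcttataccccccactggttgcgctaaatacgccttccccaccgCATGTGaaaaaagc
NOG2 (chrXIV:723249-723301, minus strand) and RLP24 (chrXII:166244-166354, plus strand), of large ribosomal subunit assembly, show GATGAG (the PAC core) and AAAAATTT (the RRPE core), with overlapping matches run together. RLP24 was chosen after its values were seen.
NOG2: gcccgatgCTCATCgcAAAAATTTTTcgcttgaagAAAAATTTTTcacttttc
RLP24: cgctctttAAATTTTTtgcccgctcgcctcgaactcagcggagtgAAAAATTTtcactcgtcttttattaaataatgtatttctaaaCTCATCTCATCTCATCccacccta
SPL2 (chrVIII:375234-375469, minus strand) and VTC3 (chrXVI:517316-517371, minus strand), of the PHO regulon, show CACGTG, a core bound by Pho4 and Cbf1.
SPL2: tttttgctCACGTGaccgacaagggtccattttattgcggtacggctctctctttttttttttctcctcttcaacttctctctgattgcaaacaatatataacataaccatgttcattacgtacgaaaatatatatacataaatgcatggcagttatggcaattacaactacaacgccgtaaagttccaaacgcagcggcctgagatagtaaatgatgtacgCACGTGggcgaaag
VTC3: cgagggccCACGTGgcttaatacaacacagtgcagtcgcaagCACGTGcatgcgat

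Higher calls at 15 to 60 min included 17 of 37 general stress genes, and lower calls 14 of 98 ribosome biogenesis genes. The 0 min level of most called genes was nearer to the later window. With limma and Benjamini-Hochberg adjustment over all genes, 180 of the 5067 genes passed an adjusted p under 0.05, which is 3.55%. Of these 111 were higher at 15 to 60 min (2.19% of the genes tested) and 69 were lower (1.36%). The differences were modest, with a median size on the log2 scale of 0.60 for the higher and 0.49 for the lower genes, and 11 and 2 of them reached a size of 1. The 4 earlier values lay wholly apart from the 3 later ones for 108 of the higher and 66 of the lower genes, where 785 of all genes tested (15.5%) had no overlap, 382 with the earlier values above (7.54%) and 403 with them below (7.95%). An unadjusted p under 0.05 was reached by 908 genes.

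The 0 min library, which the test did not use, was nearer to the 75 to 105 min mean than to the 15 to 60 min mean for 75 of the 111 higher genes and 48 of the 69 lower ones. Over all genes with a 0 min value the same held for 2684 of 5056. Over all 111 higher genes the median log2 level relative to 0 min was 0.50, 0.49, 0.61 and 0.28 at 15, 30, 45 and 60 min, and -0.07, -0.13 and -0.16 at 75, 90 and 105 min. Over all 69 lower genes it was -0.48, -0.54, -0.51 and -0.23 at 15 to 60 min, and 0.04, 0.03 and 0.01 at 75 to 105 min. The 60 min library lay between the windows in both. For 36 higher and 21 lower genes the earlier window was the one nearer 0 min, and some of these departed from 0 min in both windows. The library farthest from the later mean was that of 45 min for 62 of the 111 higher genes, 15 min for 34, 30 min for 15 and 60 min for 0. Among the 69 lower genes it was 45 min for 31, 15 min for 21, 30 min for 14 and 60 min for 3. Over all genes tested the 15 min library, the shallowest of the 7, held this place most often, for 1712 genes against 1357 for 45 min.

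**Figure D1:**
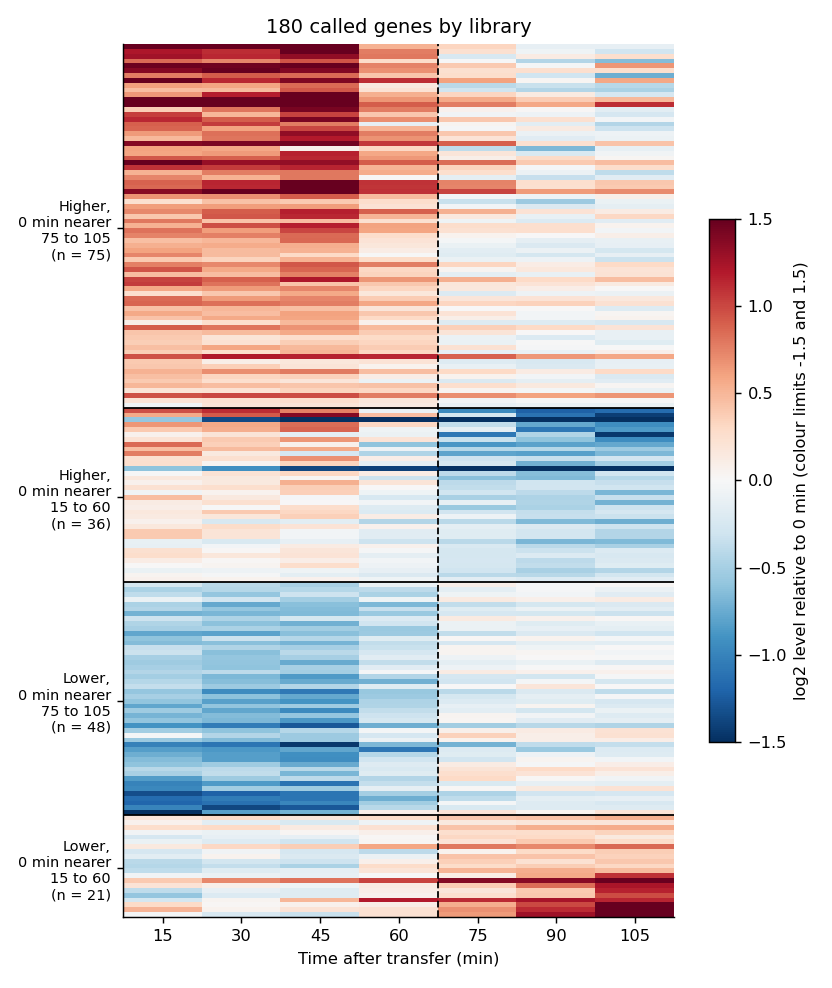
Rows are the 180 called genes and columns the 7 libraries in time order, coloured by log2 level relative to the 0 min library, with a dashed line between the windows. Rows are divided by direction and by which window lay nearer 0 min (75, 36, 48 and 21 genes from the top), so colour against 0 min within a block follows in part from that division. In the blocks of 75 and 48 genes the colour at 60 min is weaker than at 45 min.

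These counts rest on few libraries. Without the 15 min library 122 higher and 108 lower genes passed, without 30 min 52 and 14, without 45 min 70 and 31, and without 60 min 208 and 213. Of the later libraries, without 75 min 80 and 33 passed, without 90 min 23 and 5, and without 105 min 26 and 6. Calls held with every library left out in turn for 18 of the 111 higher and 4 of the 69 lower genes. With no variance trend in the fit 0 genes passed (795 at an unadjusted p under 0.05), and with a straight line in time as a covariate 0 passed (253 unadjusted). Every earlier time precedes every later one, so the line and the split into windows largely overlap. That fit therefore separates a step from a steady drift poorly.

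General stress genes, known targets of Msn2 and Msn4, had the highest share of members called. Of 37 tested, 17 were higher at 15 to 60 min, which is 45.9% beside 2.19% of all genes, and the median log2 difference was 0.55, against -0.01 for all genes. Their median relative to 0 min was 0.52, 0.69, 1.02 and 0.40 at 15, 30, 45 and 60 min, and 0.18, -0.03 and 0.07 at 75, 90 and 105 min. The group was thus highest at 45 min and near its 0 min level from 90 min. It did not stay there, since its median over the libraries of 120 to 360 min ranged from 0.15 to 3.21.

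DDR2, a small protein induced by many stresses, stood at 149 RPM at 0 min, 228, 225, 269.7 and 165 at 15 to 60 min, and 112, 119 and 112 at 75 to 105 min. Every earlier value was above every later one, with a difference of 0.94 log2 units (SE 0.13, adjusted p = 0.000958). SPI1, a cell wall protein, stood at 87.9 RPM at 0 min, 159, 146, 169 and 107 at 15 to 60 min, and 87.4, 64.7 and 55.8 at 75 to 105 min, again with no overlap, and its difference was 1.07 log2 units (SE 0.16, adjusted p = 0.00193). PNC1, the nicotinamidase of NAD salvage, stood at 277 RPM at 0 min, 442, 447, 522 and 386 at 15 to 60 min, and 269, 264 and 294 at 75 to 105 min. Its later values were close to the 0 min level and its difference was 0.70 log2 units (SE 0.09, adjusted p = 0.000769). MSC1 stood at 168 RPM at 0 min, 263, 298, 422 and 285 at 15 to 60 min, and 222, 159 and 159.6 at 75 to 105 min, with a clear maximum at 45 min and a difference of 0.81 log2 units (SE 0.14, adjusted p = 0.00557). CYC7, the second cytochrome c isoform, had 20.3 RPM at 0 min, 56.3, 55.7, 75.9 and 34 at 15 to 60 min, and 26.6, 19.9 and 32.3 at 75 to 105 min, and CTT1, cytosolic catalase, had 35.1 RPM at 0 min, 46.2, 51.2, 64.3 and 33.5 at 15 to 60 min, and 31.9, 16.6 and 19.5 at 75 to 105 min. Both were highest at 45 min. This gave a difference of 1.05 log2 units (SE 0.22, adjusted p = 0.0152) for CYC7 and 1.12 log2 units (SE 0.23, adjusted p = 0.0115) for CTT1. Outside the list RTC3 followed the same course, at 90.9 RPM at 0 min, 269.9, 258, 315 and 131 at 15 to 60 min, and 113, 83.6 and 83.2 at 75 to 105 min. Its difference was 1.32 log2 units (SE 0.21, adjusted p = 0.0029).

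The calls of DDR2, SPI1, PNC1 and RTC3 held with each library left out. MSC1 and CTT1 did not pass without the 90 or the 105 min library (adjusted p up to 0.0726 and 0.114). Nor did CYC7 without 30 or 90 min (up to 0.135). The list count was 8 without 30 min, 10 without 45 min, 3 without 90 min and 4 without 105 min.

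**Figure D2:**
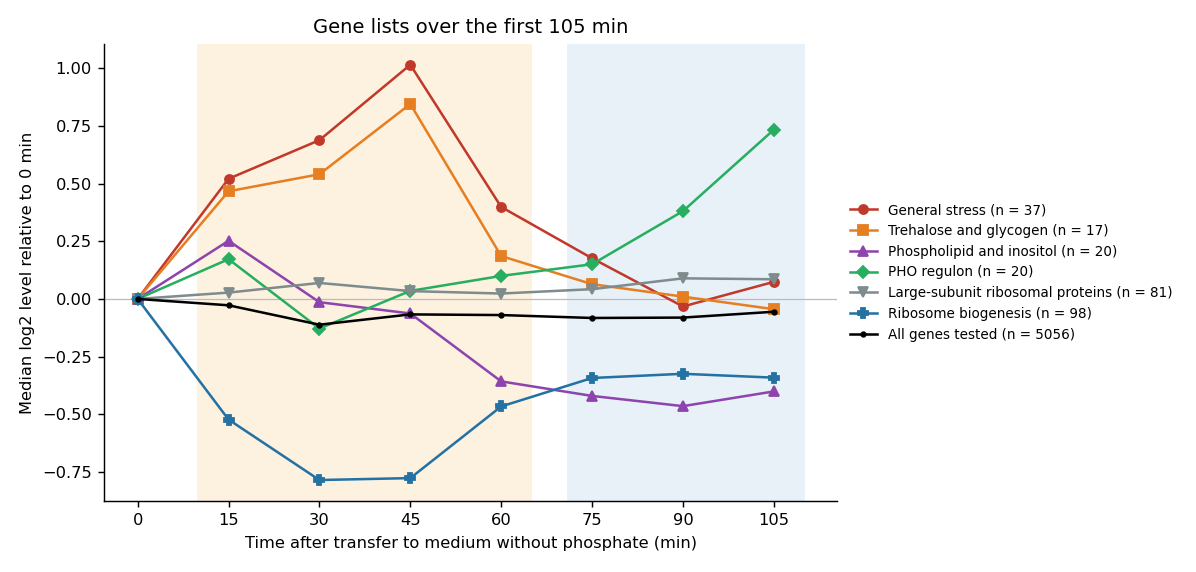
Lines are the median log2 level of 6 gene lists and of all genes tested, relative to the 0 min library, against time in min, with the earlier window shaded orange and the later one blue. General stress genes peak at 1.02 at 45 min, ribosome biogenesis genes are lowest at 30 and 45 min, and the PHO regulon reaches 0.73 at 105 min.

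Of 17 genes of trehalose and glycogen metabolism, the reserve carbohydrates of yeast, 5 were higher, beside 2.19% of all genes (median log2 difference 0.60). GPH1, glycogen phosphorylase, stood at 94.5 RPM at 0 min, 131, 131, 181 and 109.7 at 15 to 60 min, and 76.5, 69.8 and 67.9 at 75 to 105 min. The 45 min library was the highest and the windows did not overlap, with a difference of 0.93 log2 units (SE 0.14, adjusted p = 0.00193). TPS1, trehalose phosphate synthase, stood at 104 RPM at 0 min, 174, 176, 187 and 125 at 15 to 60 min, and 108, 105 and 111 at 75 to 105 min, so that the later libraries were within a few RPM of 0 min, and its difference was 0.60 log2 units (SE 0.12, adjusted p = 0.0124). UGP1, which makes UDP-glucose for both reserves, stood at 363 RPM at 0 min, 429.5, 427, 585 and 387 at 15 to 60 min, and 292, 285 and 298 at 75 to 105 min. It differed by 0.63 log2 units (SE 0.11, adjusted p = 0.00493). PGM2, phosphoglucomutase, rose through 45 min, with 66.5, 89.6, 138 and 87 RPM at 15 to 60 min, and 53.6, 51.8 and 45.8 at 75 to 105 min. The windows differed by 0.87 log2 units (SE 0.18, adjusted p = 0.0126). Enzymes of making and of breaking down the reserves were thus both among the 5. TPS1 is also a member of the stress list. GPH1 and UGP1 held with each library left out. TPS1 did not pass without 30, 90 or 105 min (adjusted p up to 0.113). Nor did PGM2 without 90 or 105 min (up to 0.091), and the list count was 3 without 30 min, 11 without 60 min and 2 without 90 or without 105 min.

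Among oxidative stress genes 6 of 24 were higher, beside 2.19% of all genes, with a median log2 difference of 0.20. CTT1 is among the 6 and is also counted in the general stress list. SOD1, cytosolic superoxide dismutase, was an abundant member at 1869 RPM at 0 min, 2521, 2779, 2812 and 2299 at 15 to 60 min, and 1986, 1816 and 1944 at 75 to 105 min, with no overlap and a difference of 0.44 log2 units (SE 0.07, adjusted p = 0.00251). GRX2, a glutaredoxin, had 427, 399, 365 and 321 RPM at 15 to 60 min, and 293, 280.0 and 264 at 75 to 105 min. Its difference came to 0.43 log2 units (SE 0.09, adjusted p = 0.0159), though it overlaps YDR512C in the annotation and the strand setting of the counts is not given. GRX2 was highest at 15 min and lower in each library after it. Relative to 228.1 RPM at 0 min, its window means stood at 0.72 and 0.29 log2 units. MCR1, a mitochondrial NADH-cytochrome b5 reductase, had 237, 205, 249.6 and 181 RPM at 15 to 60 min, and 165, 120.1 and 139.6 at 75 to 105 min. Relative to 198.7 RPM at 0 min, its window means stood at 0.12 and -0.50 log2 units. The change between windows was 0.63 log2 units (SE 0.12, adjusted p = 0.0109). Heat shock and chaperone genes were mixed, with 3 of 28 higher (beside 2.19%) and a median difference of 0.05. BTN2, a sorting factor for misfolded proteins, had 65.7, 67.7, 69.2 and 53 RPM at 15 to 60 min, and 47.3, 30.03 and 34.2 at 75 to 105 min. The fit gave 0.80 log2 units (SE 0.16, adjusted p = 0.0115). HSP42, a small heat shock protein, had 131, 83, 105 and 50.5 RPM at 15 to 60 min, and 45.8, 40.2 and 57.9 at 75 to 105 min, where the 60 min value lay under the 105 min one, and a difference of 0.88 log2 units (SE 0.23, adjusted p = 0.043). UBI4, polyubiquitin, differed by 0.37 log2 units (SE 0.09, adjusted p = 0.0207) and shares reads with similar genes. The chaperone list as a whole was still at 0.38, 0.34 and 0.44 above 0 min at 75, 90 and 105 min, unlike the stress list at 0.18, -0.03 and 0.07, a contrast that was not tested. SOD1 held with each library left out. MCR1 and BTN2 did not pass without 90 or 105 min (adjusted p up to 0.113 for each). GRX2 lost the call without 30, 90 or 105 min (up to 0.113). UBI4 lost the call without 30, 45, 90 or 105 min (up to 0.184). HSP42 lost it without any library but that of 60 min (up to 0.233).

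In glycolysis and fermentation 7 of 25 genes passed, all higher, beside 2.19% of all genes, with a median log2 difference of 0.11 over the list. ALD6, cytosolic aldehyde dehydrogenase, stood at 1042 RPM at 0 min, 1715, 1950, 2345 and 1946 at 15 to 60 min, and 1505, 1214 and 1135 at 75 to 105 min. Between windows it differed by 0.63 log2 units (SE 0.10, adjusted p = 0.0022). ALD4, the mitochondrial aldehyde dehydrogenase and in none of the lists, stood at 342 RPM at 0 min, 541, 509, 611 and 423 at 15 to 60 min, and 266, 201 and 180.1 at 75 to 105 min. Its later values were below 0 min, where those of ALD6 were above it, and its difference was 1.28 log2 units (SE 0.12, adjusted p = 5.49e-05). Of the sugar kinases, GLK1 (glucokinase) had 258, 251, 268 and 173 RPM at 15 to 60 min, and 153, 119.7 and 146 at 75 to 105 min, and HXK1 (hexokinase 1) had 236, 282, 405 and 271 RPM at 15 to 60 min, and 214, 152 and 168 at 75 to 105 min. Both were highest at 45 min and neither overlapped between windows. Relative to 0 min the window means were 0.95 and 0.19 log2 units for GLK1, and 1.20 and 0.47 for HXK1. The difference was 0.75 log2 units (SE 0.13, adjusted p = 0.00557) for GLK1 and 0.73 log2 units (SE 0.15, adjusted p = 0.0115) for HXK1. GLK1 overlaps YCL042W in the annotation, and HXK1 is also counted in the general stress list. TDH2, a glyceraldehyde phosphate dehydrogenase gene that shares reads with its paralogs, was highest at 15 min and lowest at 75 min, with 2824, 2268, 2017 and 1727 RPM at 15 to 60 min, and 1463, 1489 and 1604 at 75 to 105 min. Relative to 2046 RPM at 0 min, its window means stood at 0.09 and -0.43 log2 units. This gave a difference of 0.52 log2 units (SE 0.11, adjusted p = 0.0152). HXT7, a high-affinity hexose transporter, was highest at 45 min with 179, 228, 312 and 166 RPM at 15 to 60 min, and 101, 55.8 and 45.5 at 75 to 105 min, and its difference of 1.76 log2 units (SE 0.22, adjusted p = 0.000596) was the second largest of all. At 0 min HXT7 stood at 120.7 RPM, and relative to that level its window means stood at 0.83 and -0.93 log2 units. HXT7 also shares reads, so its own level is uncertain. It was the 1 call among 17 hexose carrier and glucose-repressed genes, with a median of -0.07. A negative difference was seen in 12 of the 17, beside 2685 of all 5067 genes. In the pentose phosphate pathway 3 of 12 were higher, again beside 2.19% of all genes (median 0.20). GND1, phosphogluconate dehydrogenase, differed by 0.45 log2 units (SE 0.09, adjusted p = 0.0108), SOL4, a phosphogluconolactonase, by 0.92 log2 units (SE 0.22, adjusted p = 0.0282), and TAL1, transaldolase, by 0.29 log2 units (SE 0.07, adjusted p = 0.032). SOL4 is also counted in the general stress list.

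ALD4, ALD6 and HXT7 held with each library left out. GLK1 did not pass without 90 min (adjusted p = 0.0809). HXK1 and GND1 lost the call without 90 or 105 min (up to 0.12 and 0.0835). TDH2 lost the call without 30, 75, 90 or 105 min (up to 0.114). SOL4 lost the call without 30, 45, 90 or 105 min (up to 0.171). TAL1 kept the call only without 15 or 60 min (otherwise up to 0.173).

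**Figure D3:**
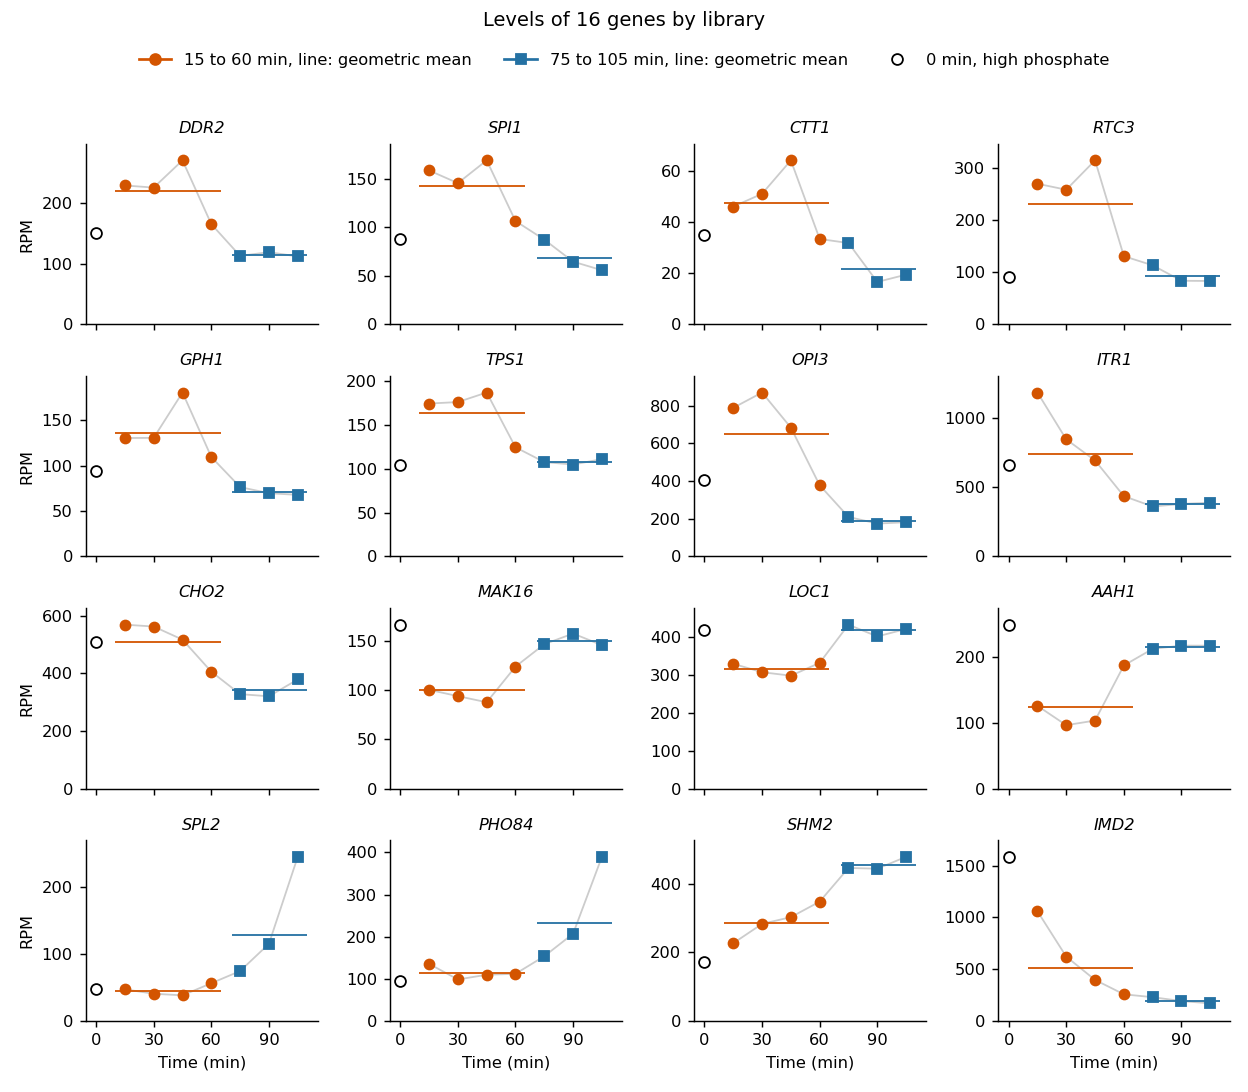
Each panel gives one gene's level in RPM (axis from 0) against time, with orange circles for 15 to 60 min, blue squares for 75 to 105 min, an open circle for 0 min and lines at the geometric means of the windows. DDR2 to TPS1 are highest at 45 min and drop by 75 min, OPI3, ITR1 and CHO2 end below 0 min, MAK16, LOC1 and AAH1 dip and return, and SPL2 and PHO84 climb from 75 min on.

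Phospholipid and inositol genes had the largest single change. Of 20 tested, 4 were higher and 1 was lower at 15 to 60 min, beside 2.19% and 1.36% of all genes, with a median log2 difference of 0.37. OPI3, the methyltransferase of the last steps of phosphatidylcholine synthesis, stood at 405 RPM at 0 min, 789, 870.0, 684 and 378 at 15 to 60 min, and 209.7, 175 and 182 at 75 to 105 min. Its earlier values were up to 870.0 RPM and its later ones all under 210 RPM and under the 0 min level, a difference of 1.79 log2 units (SE 0.19, adjusted p = 9.22e-05). ITR1, the main inositol transporter, was highest in the first library, at 658 RPM at 0 min, 1181, 844, 692 and 434 at 15 to 60 min, and 360.1, 378 and 387 at 75 to 105 min. It differed by 0.98 log2 units (SE 0.20, adjusted p = 0.0137). CHO1, phosphatidylserine synthase, followed the same course with 388 RPM at 0 min, 660.3, 429, 327 and 284 at 15 to 60 min, and 224, 221 and 244 at 75 to 105 min. The windows differed by 0.81 log2 units (SE 0.19, adjusted p = 0.0218). CHO1 was highest at 15 min. CHO2, the methyltransferase ahead of OPI3, had 509 RPM at 0 min, 569.5, 563, 518 and 406 at 15 to 60 min, and 328, 321 and 379 at 75 to 105 min. Its difference came to 0.58 log2 units (SE 0.10, adjusted p = 0.00671). All 4 were above 0 min at 15 min and below it at 75, 90 and 105 min, so they passed through their 0 min level and did not return to it within the window. URA7, CTP synthase, was the lower one, with 250.5 RPM at 0 min, 168, 130.4, 119 and 169 at 15 to 60 min, and 189, 215 and 193 at 75 to 105 min. The change between windows was -0.45 log2 units (SE 0.12, adjusted p = 0.0461). Over 120 to 360 min OPI3 ranged over 242 to 793 RPM. OPI3 held with each library left out. CHO2 did not pass without 90 min (adjusted p = 0.0857). ITR1 lost the call without 30, 90 or 105 min (up to 0.104). CHO1 lost the call without 30, 75, 90 or 105 min (up to 0.14). URA7 kept its call only without 15 or 60 min (otherwise up to 0.254). With a straight line in time as a covariate the differences of ITR1 and CHO1 changed sign, to -0.12 and -0.13. The list count was 7 without 60 min, 2 without 30 or without 105 min, 1 without 90 min, and 1 with robust empirical Bayes.

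Of 98 ribosome biogenesis genes tested, 14 were lower at 15 to 60 min (14.3% beside 1.36% of all genes), and the median was -0.32 against -0.01 for all genes. A negative difference was seen in 96 of the 98, beside 2685 of all 5067 genes. Relative to 0 min the list median was -0.52, -0.78, -0.78 and -0.47 at 15, 30, 45 and 60 min, and -0.34, -0.32 and -0.34 at 75, 90 and 105 min. The return was therefore partial for the list as a whole. Values did not overlap, with the earlier ones below, for 34 of the 98, beside 7.95% of all genes.

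MAK16, needed for the large subunit, stood at 166 RPM at 0 min, 100.1, 93.7, 87.5 and 124 at 15 to 60 min, and 146, 157 and 145 at 75 to 105 min. Its lowest value was at 45 min, the windows did not overlap, and the difference was -0.57 log2 units (SE 0.12, adjusted p = 0.0115). LOC1, a nuclear assembly factor of the large subunit, stood at 421 RPM at 0 min, 330.1, 308, 299 and 333 at 15 to 60 min, and 434, 402 and 422 at 75 to 105 min, so that its later values were within 20 RPM of 0 min, and the difference was -0.40 log2 units (SE 0.07, adjusted p = 0.00793). NOP15, a factor of pre-rRNA processing, had 245, 236, 211 and 274 RPM at 15 to 60 min, and 320.0, 333 and 311 at 75 to 105 min. The fit gave -0.42 log2 units (SE 0.09, adjusted p = 0.0159). NOP15 was lowest at 45 min, and its 60 min value was the nearest to the later ones. NOG2, a GTPase of large subunit export, had 227, 231, 219.5 and 275 RPM at 15 to 60 min, and 298, 322 and 319.7 at 75 to 105 min. Between windows it differed by -0.40 log2 units (SE 0.09, adjusted p = 0.018), and it overlaps the noncoding gene YNCN0019C. FAL1, an RNA helicase of small subunit assembly and in none of the lists, was at 48.8 RPM at 0 min, 21.9, 23.5, 22.8 and 29.4 at 15 to 60 min, and 37.5, 43.9 and 44.8 at 75 to 105 min, with a difference of -0.79 log2 units (SE 0.16, adjusted p = 0.0122). The windows of FAL1 did not overlap.

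Of 26 genes of the polymerases that make ribosomal and transfer RNA, 3 were lower, beside 1.36% of all genes, and the median was -0.26. RPC25, a subunit of RNA polymerase III, had 90.8, 98.2, 79 and 112 RPM at 15 to 60 min, and 152, 146 and 135 at 75 to 105 min. That is a difference of -0.61 log2 units (SE 0.12, adjusted p = 0.0108). RRN11, of the core factor of RNA polymerase I, had 34.4, 38.4, 32.1 and 54.1 RPM at 15 to 60 min, and 58.9, 63.3 and 62.7 at 75 to 105 min. The difference was -0.66 log2 units (SE 0.16, adjusted p = 0.0331). In both the 45 min library was the lowest and the 60 min library the nearest to the later ones. RPA34, a subunit of RNA polymerase I, had 577, 522, 492 and 644 RPM at 15 to 60 min, and 736, 682 and 698 at 75 to 105 min. This gave a difference of -0.34 log2 units (SE 0.08, adjusted p = 0.0314). RPA190, the largest subunit of that polymerase, had 271, 219, 198 and 257 RPM at 15 to 60 min, and 322, 282 and 312 at 75 to 105 min and missed the threshold at -0.38 log2 units (SE 0.10, adjusted p = 0.0505). LOC1 did not pass without 105 min (adjusted p = 0.0595). RPC25 lost the call without 90 min (0.0885). MAK16 and FAL1 lost the call without 90 or 105 min (up to 0.113). NOP15 lost the call without 30, 75, 90 or 105 min (up to 0.137). NOG2 lost the call without 30, 45, 90 or 105 min (up to 0.143). RRN11 and RPA34 kept the call only without 15 or 60 min (otherwise up to 0.176). The biogenesis count was 30 without 15 min, 2 without 30 min, 6 without 45 or without 75 min, 36 without 60 min, 1 without 90 min and 0 without 105 min.

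No gene for a ribosomal protein passed the test. None of the 81 large-subunit and 56 small-subunit genes tested passed in limma, and the medians were -0.02 and -0.04. At an unadjusted p under 0.05 in limma, 0 and 0 were higher but 11 and 15 lower. Over all 5067 genes tested, 424 were higher and 484 lower at that level. Ribosomal protein genes held 34.7%, 36.6%, 35.3% and 36.2% of reads at 15, 30, 45 and 60 min, and 36.9%, 37.1% and 36.2% at 75, 90 and 105 min (33.8% at 0 min). The means were 35.7% ± 0.862 at 15 to 60 min and 36.7% ± 0.501 at 75 to 105 min (SD over 4 and 3 libraries), and the exact two-sided permutation p was 0.171, where 4 against 3 libraries allow none under 0.0571. Mitochondrial ribosomal protein genes had 0 of 64 past the test in limma (1 higher and 2 lower unadjusted). Since values are shares of a library, a change in a transcript and a change in the total of all others cannot be told apart. Nor can fewer cells holding a transcript be told from less of it per cell.

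The PHO regulon began to climb within the later window. Of 20 members tested, 7 were lower at 15 to 60 min, beside 1.36% of all genes, with a median log2 difference of -0.35, and the list median relative to 0 min was 0.17, -0.13, 0.03 and 0.10 over 15 to 60 min, and 0.15, 0.38 and 0.73 over 75 to 105 min. The list was farthest above 0 min at 90 and 105 min, so the later window is not free of PHO induction. SPL2, which limits low-affinity phosphate uptake, stood at 47.8 RPM at 0 min, 46.9, 40.5, 38 and 56.1 at 15 to 60 min, and 74.3, 115 and 245 at 75 to 105 min, and its difference of -1.51 log2 units (SE 0.26, adjusted p = 0.00557) was the largest of the lower genes. PHO84 encodes the phosphate transporter of high affinity and stood at 95 RPM at 0 min, 135, 98.2, 109 and 112 at 15 to 60 min, and 153, 207 and 389.7 at 75 to 105 min, all later values being above all earlier ones, with a difference of -1.03 log2 units (SE 0.21, adjusted p = 0.0115). PHO84 overlaps the noncoding gene YNCM0001W, and its promoter also drives the YFP reporter of the strain. VTC3, VTC4 and VTC1, of the complex that makes polyphosphate, went the same way. VTC3 had 241, 201, 207 and 215 RPM at 15 to 60 min, and 289, 394 and 624 at 75 to 105 min. It differed by -0.94 log2 units (SE 0.17, adjusted p = 0.00557), VTC4 by -0.72 log2 units (SE 0.14, adjusted p = 0.0108) and VTC1 by -0.66 log2 units (SE 0.14, adjusted p = 0.0159). In each of the 3 the lowest later value was above the highest earlier one. PHO81, the inhibitor of Pho80 and Pho85, stood below 0 min at 15 min and above it at 105 min, with 71.1 RPM at 0 min, 47.7, 61.9, 63 and 74.7 at 15 to 60 min, and 84.4, 94.3 and 139.6 at 75 to 105 min. The windows differed by -0.76 log2 units (SE 0.17, adjusted p = 0.0176). PHO12, an acid phosphatase that shares reads with its near copy, differed by -0.73 log2 units (SE 0.17, adjusted p = 0.0207).

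Some members had not moved apart by this test. PHO5, the main secreted acid phosphatase, had 348, 268, 303 and 324 RPM at 15 to 60 min, and 308, 323 and 417 at 75 to 105 min, with overlap and a difference of -0.16 log2 units (SE 0.11, adjusted p = 0.453). VTC2 and PHO86 missed the threshold at -0.43 log2 units (SE 0.12, adjusted p = 0.0553) and -0.42 log2 units (SE 0.12, adjusted p = 0.0529). KCS1, which encodes the other kind of inositol pyrophosphate kinase, differed by -0.08 log2 units (SE 0.14, adjusted p = 0.838) and VIP1 by -0.07 log2 units (SE 0.17, adjusted p = 0.876). SPL2 and VTC3 held with each library left out. PHO84 and VTC4 did not pass without 90 or 105 min (adjusted p up to 0.0596 and 0.0885). Nor did VTC1, PHO81 and PHO12 without 30, 90 or 105 min (up to 0.142 for PHO81). With a straight line in time as a covariate PHO81, PHO12 and PHO5 changed sign, to 0.0907, 0.10 and 0.0204. The list count was 4 without 30 min, 2 without 90 or without 105 min, and 4 with robust empirical Bayes.

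Of the called genes of purine and one-carbon metabolism, IMD2, IMD3 and SHM2 drifted across both windows, while MIS1 and AAH1 dipped and returned. IMD2, an IMP dehydrogenase of guanine nucleotide synthesis, stood at 1585 RPM at 0 min, 1059, 620.3, 395 and 256 at 15 to 60 min, and 228, 191 and 168 at 75 to 105 min, lower in each library than in the one before, with a difference of 1.39 log2 units (SE 0.30, adjusted p = 0.0152). Its paralog IMD3 declined alongside with 1091 RPM at 0 min, 720.2, 577, 423 and 413 at 15 to 60 min, and 359, 357 and 306 at 75 to 105 min. Its difference came to 0.61 log2 units (SE 0.14, adjusted p = 0.0259), and the pair share reads. SHM2, serine hydroxymethyltransferase, was higher with time, at 172 RPM at 0 min, 227, 284, 303 and 349 at 15 to 60 min, and 447, 445 and 479.7 at 75 to 105 min. The change between windows was -0.67 log2 units (SE 0.11, adjusted p = 0.00351). MIS1, a mitochondrial enzyme of one-carbon metabolism, dipped and returned, with 222 RPM at 0 min, 157, 144, 130.4 and 152 at 15 to 60 min, and 185, 202 and 219.6 at 75 to 105 min. The fit gave -0.47 log2 units (SE 0.10, adjusted p = 0.0137). AAH1, adenine deaminase, gave a sharp dip at 249.5 RPM at 0 min, 126, 96.6, 104 and 187 at 15 to 60 min, and 213, 218 and 218 at 75 to 105 min. It was lowest at 30 min, with a difference of -0.80 log2 units (SE 0.16, adjusted p = 0.0115). SHM2 held with each library left out. AAH1 and MIS1 did not pass without 90 or 105 min (adjusted p up to 0.101 and 0.113). IMD2 lost the call without 30, 90 or 105 min (up to 0.115). IMD3 lost it without 30, 75, 90 or 105 min (up to 0.16). With a straight line in time as a covariate both changed sign, to -0.53 and -0.22.

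Of the called genes named next, from the cell wall, vacuole and respiratory chain lists or from none, all but SCW10 were higher. CWP1, a cell wall mannoprotein, had 389, 438, 527 and 384 RPM at 15 to 60 min, and 266, 221 and 176 at 75 to 105 min. Relative to 334.3 RPM at 0 min, its window means stood at 0.37 and -0.62 log2 units. Its difference was 0.99 log2 units (SE 0.13, adjusted p = 0.000596). SCW10, a cell wall glucanase-like protein, was lower instead, with 338, 315, 339.8 and 424 RPM at 15 to 60 min, and 454, 477 and 484 at 75 to 105 min, and differed by -0.42 log2 units (SE 0.09, adjusted p = 0.0159). These were 2 of the 4 cell wall genes called among 26, 3 higher and 1 lower, beside 2.19% and 1.36% of all genes. SPI1 is among the 3 and is also counted in the general stress list. Over the 26 genes 15 differences were positive and 11 negative, beside 2382 and 2685 of all genes tested, with a median of 0.07. PNS1, a membrane protein related to choline transporters, had 89.96, 106, 90.6 and 55.6 RPM at 15 to 60 min, and 40.9, 41.1 and 41.1 at 75 to 105 min. The difference was 1.02 log2 units (SE 0.17, adjusted p = 0.00442). SDP1, a MAP kinase phosphatase, had 24.2, 22.3, 25.4 and 17.5 RPM at 15 to 60 min, and 8.63, 11.1 and 12.1 at 75 to 105 min, from as few as 23 reads in a library, and differed by 1.08 log2 units (SE 0.21, adjusted p = 0.0115). PNS1 was highest at 30 min and level from 75 min. BDH2, a putative alcohol dehydrogenase, had 44.6, 41.7, 60.3 and 33 RPM at 15 to 60 min, and 22.9, 18.5 and 15.8 at 75 to 105 min. This gave a difference of 1.22 log2 units (SE 0.20, adjusted p = 0.00351). PEP4, vacuolar proteinase A, differed by 0.43 log2 units (SE 0.09, adjusted p = 0.0115) and LAP4, vacuolar aminopeptidase I, by 0.47 log2 units (SE 0.12, adjusted p = 0.0407), the 2 called of 24 autophagy and vacuole genes. In the respiratory chain 2 of 34 were higher, and both shares stand beside 2.19% of all genes. These were COX5B, a cytochrome c oxidase isoform, at 0.55 log2 units (SE 0.10, adjusted p = 0.00546) and INH1, the ATP synthase inhibitor, at 0.55 log2 units (SE 0.10, adjusted p = 0.00556). Proteasome genes had 0 of 34 past the test in limma, with a median difference of 0.17. A positive difference was seen in 33 of them, beside 2382 of all 5067 genes. Unadjusted, 11 were higher at p under 0.05, beside 424 of all 5067 genes. CWP1, PNS1 and BDH2 held with each library left out. SDP1 and COX5B did not pass without 90 min (adjusted p = 0.0596 and 0.0685). INH1 lost the call without 105 min (0.056). PEP4 lost the call without 90 or 105 min (up to 0.107). SCW10 lost the call without 30, 90 or 105 min (up to 0.129). LAP4 kept the call only without 15 or 60 min (otherwise up to 0.147).

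**Figure D4:**
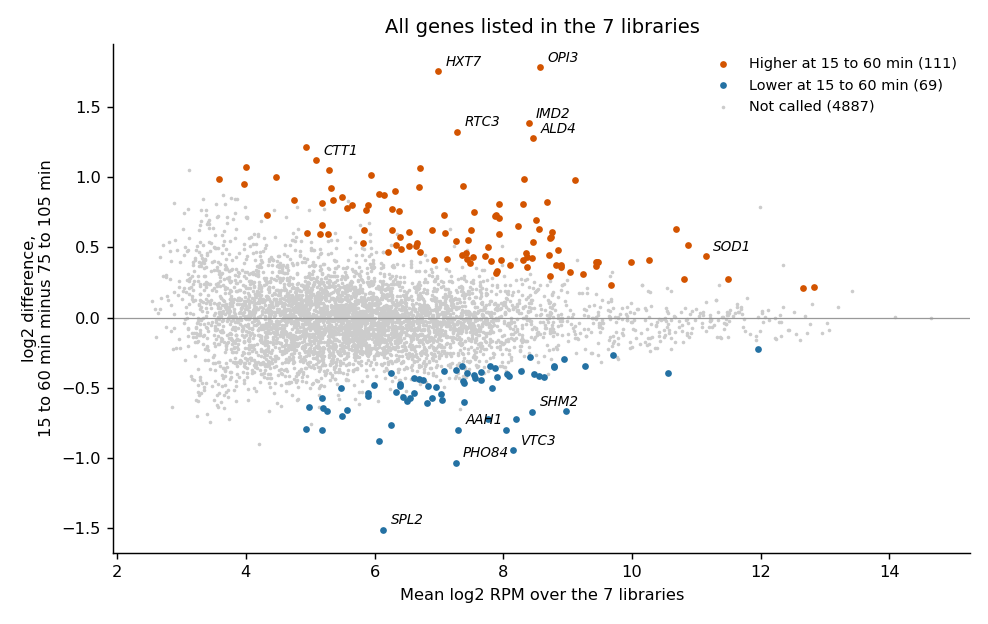
Each point is one of the 5067 genes, with its mean log2 RPM over the 7 libraries on the horizontal axis and its log2 difference, 15 to 60 min minus 75 to 105 min, on the vertical axis. The 111 higher genes (orange) and 69 lower genes (blue) lie at all but the lowest levels, from OPI3 at 1.79 to SPL2 at -1.51.

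Outside all of the lists were 53 of the higher and 37 of the lower genes, and 27 of the 41 lists with tested genes held at least 1 call. How many of all genes tested were in no list was not counted. Nor was the number of lists that would hold a call at the overall share of 3.55%. These counts therefore do not show whether calls spread beyond the lists or gathered in them. Other called genes were FAA1, an acyl-CoA synthetase, at 0.47 log2 units (SE 0.12, adjusted p = 0.0326), GDH1, glutamate dehydrogenase, at 0.41 log2 units (SE 0.08, adjusted p = 0.0115), and LEU1, of leucine synthesis, at -0.35 log2 units (SE 0.08, adjusted p = 0.0203). FAA1 passed only with all libraries or without 60 min, GDH1 did not pass without 75 or 90 min, and LEU1 not without 30, 90 or 105 min (adjusted p up to 0.143, 0.113 and 0.143). Among the called genes 9 higher and 2 lower ones share reads with similar genes. The counts also hold pairs of neighbouring loci whose values lay within 0.2 log2 units of each other in all libraries up to 105 min, namely HXK1 with YFR052C-A and DDR48 with YMR173W-A among the higher genes, and SCW10 with YMR304C-A among the lower. YDR133C and YDR134C, both higher, differed by up to 0.33 log2 units. These pairs were chosen after their values were seen, and whether their members are separate transcripts was not tested.

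The called genes had upstream elements in common that the test did not use. The windows of 500 to 101 bases before the start codon were read for 4950 tested genes and searched on both strands. AGGGG, the core shown in TPS1 and PNC1, was found in 84 of 106 higher genes (79.2%) and 14 of 68 lower ones (20.6%), beside 29.6% of all. The share was 86.1% in the 72 higher genes whose 0 min level was nearer the later window, 64.7% in the 34 whose 0 min level was nearer the earlier one, and 85.4% in the 48 higher genes in none of the lists. General stress genes are in part known by this element, and 36 of the 37 tested carried it. GATGAG was found in 40 of 68 lower genes (58.8%), beside 18 of 106 higher genes and 23.6% of all. AAAAATTT was found in 31 lower genes (45.6%), beside 11.3% of the higher and 18.9% of all. In the 36 lower genes in none of the lists the shares were 50.0% and 36.1%. CACGTG was found in all 7 called PHO genes and in 16 of the 20 tested, beside 5.96% of all, though the regulon is in part defined by this element. CATGTG, a motif added after the data were seen, was found in 4 of the 5 called phospholipid genes and 13 of the 20 tested, beside 11.6% of all. TGACTC, the Gcn4 core, was in 6.60% of the higher and 5.88% of the lower genes, beside 545 of 4950 in all. GAANNTTC, a heat shock element core, was in 18.9% and 16.2%, beside 16.4% of all. These are matches of letters, not sites shown to be bound.

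**Figure D5:**
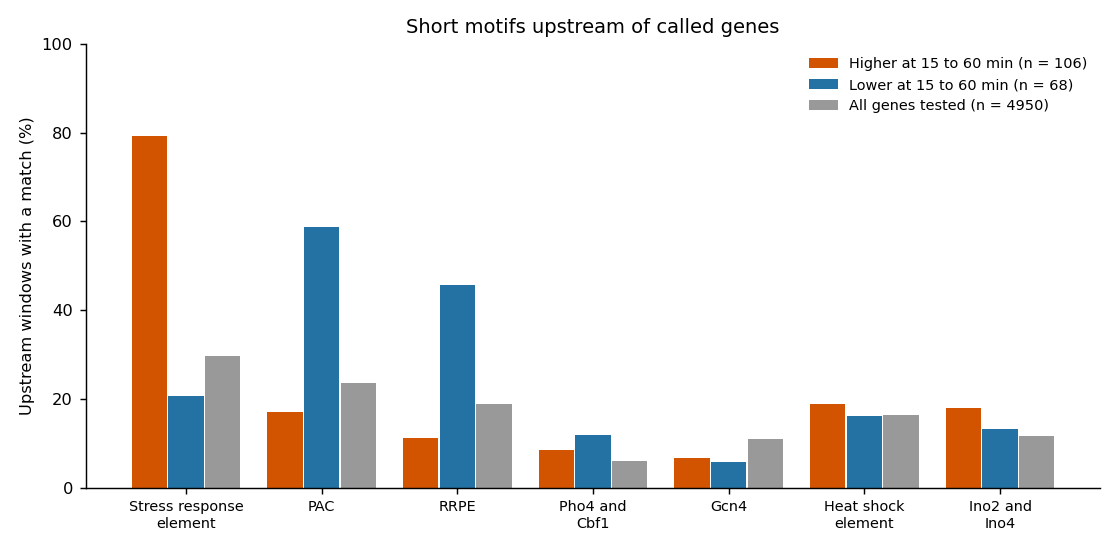
Bars give the percent of upstream windows with at least 1 match of each motif, for genes higher at 15 to 60 min (orange), genes lower (blue) and all genes tested (grey). The stress response element stands at 79.2% in the higher genes, and PAC and RRPE at 58.8% and 45.6% in the lower ones, beside 29.6%, 23.6% and 18.9% of all.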

How the data were processed

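RNA was taken over one time course and sequenced as 1 library per time point. The submitters' processing notes name Bowtie and build R64. How reads were counted, on which strand, and how shared reads were treated is not stated in these sources. The values as deposited by the authors are log2 of RPM per gene, and the antilogs of each column sum to 1000000. Of 6701 rows, 51 carried no gene name. Taking the lowest value of a library as 10 reads, 93.9% of values came out whole (tolerance 0.01). That gave the depths, and genes with fractional reads in at least 4 of the 7 libraries (295 tested) are called genes that share reads. No count test was run, since values under 10 reads are blank.

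Genes listed in all 7 libraries were fitted with limma 3.58.1 in R 4.3.3 (2 windows, empirical Bayes with a variance trend, no pseudocount). Benjamini-Hochberg adjustment was over all of them. The fit had 5 residual and 12 prior degrees of freedom, so the spread over genes outweighed a gene's own. SE means the fit's standard error, and window levels are geometric means. The fit was tested on simulated data with independent libraries and a step between windows larger than the median called difference. Drift between neighbouring times was not simulated, so that check does not cover it. The text names genes from the 15 largest called differences each way with no overlap, the 4 members of each list with the largest test statistic, PHO genes, VIP1 and KCS1. The members, windows and gene lists were chosen with earlier results of these data known. Names matched R64 for 4955 tested genes. Upstream windows came from the R64 sequence and annotation, and sequences are credited to RefSeq. Figures and tests of read shares used Python 3.11.15, scipy 1.17.1 and matplotlib 3.10.9. Alternatives were other filters on low values, median centring, no variance trend, robust empirical Bayes, array weights, minimum sizes, a linear time covariate, the 60 and 75 min libraries left out, a pseudocount of 5 RPM and each library left out in turn.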

Additional observations from a re-analysis of the deposited data

Results flagged for a closer look

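In 2 of the 69 genes or shares examined, 1 of the 4 libraries of 15 to 60 min stood apart from the other 3 past Dixon's 95% critical value for the ratio of gap to range. Chance flags about 1 in 20 such sets. GLK1, glucokinase, stood at 173.0 RPM at 60 min, with the gap to the nearest library 0.851 of the range. GND1, phosphogluconate dehydrogenase, stood at 413.9 RPM at 60 min, with a ratio of 0.837. Both were lowest in that library, the last before the later window.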

How the results depend on the processing

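Counts of higher and lower genes stayed within 1.5 times of 111 and 69 with a looser filter (115 and 74), with genes of at least 20 RPM (112 and 80), with median centring (119 and 67), with robust empirical Bayes (104 and 78) and with a pseudocount of 5 RPM (113 and 75). They were 195 and 200 with array weights, 187 and 143 without the 60 and 75 min libraries, 57 and 22 with a minimum log2 difference of 0.58, and 11 and 2 with a minimum of 1. With no variance trend or with a linear time covariate 0 and 0 genes passed, and so 0 of each list (unadjusted, 795 and 253 genes reached p under 0.05). The cause was not tested. With the line, 7 genes changed sign: IMD2 to -0.53, IMD3 to -0.22, ITR1 to -0.12, CHO1 to -0.13, PHO81 to 0.0907, PHO12 to 0.10 and PHO5 to 0.0204. Time and window run together, so these signs come from a fit that separates them poorly. With each library left out in turn the counts ranged from 23 to 208 higher and from 5 to 213 lower, and from 3 to 22 stress, 2 to 11 trehalose and glycogen, 1 to 7 phospholipid, 0 to 36 ribosome biogenesis and 2 to 9 PHO genes. Array weights gave 9 trehalose and glycogen, 7 phospholipid and 42 ribosome biogenesis genes. Without 60 and 75 min these were 10, 8 and 27. Robust empirical Bayes gave 1 phospholipid and 4 PHO genes. A minimum of 0.58 left 1 ribosome biogenesis gene, and a minimum of 1 left 3 stress, 0 trehalose and glycogen, 1 phospholipid, 0 ribosome biogenesis and 2 PHO genes. The ribosomal protein share stayed lower at 15 to 60 min throughout, by 0.701 to 1.34 percentage points with each library left out. No paired analysis was possible because each time point has 1 library and the labels give no replicate numbers. Depth limits genes near 10 reads, which are absent from the test where any library lists them blank, and p-values rest on neighbouring times taken as replicates.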
